A study of Rattus norvegicus and Mus musculus with 18 samples.

Results

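Foxd1, Tbx18, Tcf21, Foxc1, Foxc2, Meis1 and Meis2 are transcription factor genes of the kidney's stroma and of the mesenchyme around the ureter, and their transcripts were followed through the dissected tissues of the embryonic kidney on Affymetrix arrays. The genes were chosen by name, and every probe set (a group of short oligonucleotides that reports 1 transcript) annotated to only 1 of the 7 symbols was taken. This gave 25 of 71239 probe sets. In mouse there were 15 for all 7 genes. In rat there were 10 for 5 genes, namely Foxd1, Tcf21, Foxc1, Foxc2 and Meis2, while Tbx18 and Meis1 had 0 single-symbol rat probe sets and were not analysed there.

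Mouse kidneys at stage E12.5 (embryonic day), when the bud has branched, were separated into ureteric bud tips, ureteric bud stalks and metanephric mesenchyme. Rat kidneys at stage E13.5 were separated into whole ureteric buds and metanephric mesenchyme. The mouse RNA came from pools of about 1000 tips, 350 stalks and 300 mesenchymes, and the rat RNA from about 1200 buds and 240 mesenchymes, with no strain, genotype or treatment in the labels. Each tissue was measured on 2 arrays per array design, 6 in mouse and 12 in rat over 3 designs called here the first design, B and C. The 2 arrays of a tissue repeat the labelling of a single RNA pool. Every p-value here therefore covers labelling and hybridisation error, and animals were not replicated.

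The metanephric mesenchyme at these stages is a mixture. It holds nephron progenitors that cap the bud tips and stromal progenitors that surround them, and a separate mesenchyme wraps the stalk and later forms the muscle coat of the ureter. Foxd1 is the classical marker of cortical stromal progenitors, Tbx18 of the mesenchyme around the ureter, and Tcf21 (also known as Pod1) is a basic helix-loop-helix factor of stroma and, later, podocytes. Foxc1 and Foxc2 are forkhead factors of early mesoderm and mesenchyme, and Meis1 and Meis2 are homeodomain factors of the TALE class that bind DNA with PBX partners.

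The promoters of 3 members are shown because these genes had 3 different levels in the mouse bud stalk relative to mesenchyme. Foxd1 was below it, Tbx18 above it by over 2-fold, and Tcf21 above it by less. The sequences are of rat, in which stalks were not measured apart from tips. RefSeq sequences of the rat assembly GRCr8 held an entry for 5 of the 7 genes. Each line gives the 250 bases before the annotated start, 5′ to 3′ on the gene's own strand, at chr2:31436552-31436801 (plus strand) for Foxd1, chr8:97559966-97560215 (minus strand) for Tbx18 and chr1:24520249-24520498 (plus strand) for Tcf21. Capitals mark matches, on either strand, to 1 of 7 motifs.
Foxd1: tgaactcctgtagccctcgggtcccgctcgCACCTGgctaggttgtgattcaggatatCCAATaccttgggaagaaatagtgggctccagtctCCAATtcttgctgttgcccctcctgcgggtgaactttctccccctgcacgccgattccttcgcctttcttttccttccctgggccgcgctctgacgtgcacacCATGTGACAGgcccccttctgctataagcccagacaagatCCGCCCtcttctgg
Tbx18: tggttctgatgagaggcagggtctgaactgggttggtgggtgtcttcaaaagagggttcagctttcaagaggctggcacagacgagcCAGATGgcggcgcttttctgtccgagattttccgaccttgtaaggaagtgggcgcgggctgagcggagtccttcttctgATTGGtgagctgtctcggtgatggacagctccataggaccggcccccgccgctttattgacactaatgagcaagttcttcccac
Tcf21: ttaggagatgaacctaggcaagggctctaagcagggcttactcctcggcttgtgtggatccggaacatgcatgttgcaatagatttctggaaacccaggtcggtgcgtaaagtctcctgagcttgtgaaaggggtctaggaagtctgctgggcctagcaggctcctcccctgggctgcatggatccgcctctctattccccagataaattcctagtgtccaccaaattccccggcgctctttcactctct

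The motifs searched were the MEIS core TGACAG, the forkhead site TGTTTAC, the T-box site AGGTGTGA, the E-box CANNTG that helix-loop-helix factors bind, the CCAAT box CCAAT, the TATA box TATAAA and the GC box GGGCGG. The Foxd1 window held 1 MEIS core that starts 50 bases before the gene's start and overlaps an E-box, a second E-box 220 bases before it, 2 CCAAT boxes and 1 GC box. The Tbx18 window held 1 E-box and 1 CCAAT box. The Tcf21 window held no match to any of the 7. Over all 27457 promoters of the same length, 15.6% held the MEIS core, 3.25% the forkhead site, 0.958% the T-box site, 65.2% an E-box, 34.3% a CCAAT box, 13.1% the TATA box and 32.4% a GC box. None of the 5 windows available held the forkhead or the T-box letters, and the Foxc1 window held 1 CCAAT box and 1 GC box while that of Meis1 held no match. A match in such a window is a description of the letters only.

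The dissected tissues carried marker genes of the bud to different degrees. The summed intensity of 11 bud epithelium genes (including Ret, Cdh1 and Wnt11) was 30416 and 29646 on the tip arrays, 15634 and 15930 on the stalk arrays and 853 and 792 on the mesenchyme arrays. The fall of this sum from tips to stalks was uneven over its genes. Ret was at 1531 and 304 and Wnt11 at 1361 and 296, but Krt8 at 3356 and 2581 and Cdh1 at 1945 and 1334. The sum is therefore not a measure of the share of epithelium in a pool. The sum of 28 other stromal and interstitial genes ran the other way, with 5284 and 4734 in tips, 31021 and 30852 in stalks and 31845 and 32047 in mesenchyme. The stalk arrays therefore held bud epithelial and stromal transcripts side by side, and the part of this in the results on stalks was not tested. Repeat arrays correlated at 0.993 to 0.998 in mouse and 0.981 to 0.996 in rat over log2 intensities.

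In mouse, transcripts of all 7 genes were lower in bud tips than in stalks and than in mesenchyme, while stalks differed from mesenchyme gene by gene. A probe set was called when the difference reached 2-fold with a Benjamini-Hochberg adjusted p under 0.05 in limma, fitted on all 23919 tested mouse probe sets. In tips against stalks 12 of 14 tested members, covering all 7 genes, were called lower, where 3.64% of all tested probe sets were called lower. In tips against mesenchyme 13 of 14 were called lower, again in all 7 genes, where 4.26% of all were. The median log2 difference of the 14 was -2.82 in tips against stalks and -3.28 in tips against mesenchyme, beside 0.06 and 0.01 over all tested probe sets. These comparisons share arrays and are given side by side. A member that passed the intensity filter through its level in mesenchyme or stalk had room to be lower in tips, so the 14 are not a sample of all members. Tip means of Tbx18 1449871_at, Foxc1 1419485_at, Meis1 1443260_at and Meis2 1440091_at were under the filter of 49.3. Their stalk and mesenchyme means were above it. Their lower direction in tips was therefore fixed by the filter, and they are in the counts and medians above. In both comparisons each of the 7 genes also had a called probe set with a tip mean above the filter. In bulk tissue, fewer cells of a type and less RNA per cell cannot be told apart.

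**Figure D1:**
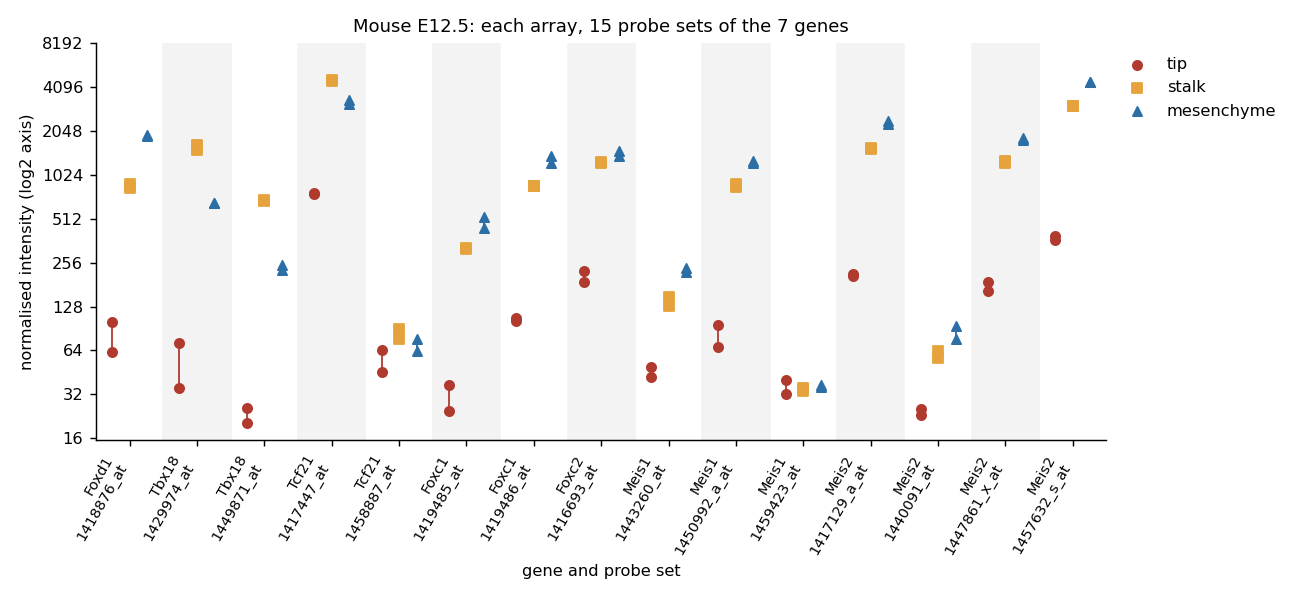
Quantile-normalised intensity (log2 axis) of the 15 mouse probe sets, with 1 point per array and 2 arrays for tips (circles), stalks (squares) and mesenchyme (triangles), and a line joining repeats. On average tips are lowest in 14 probe sets, stalks are highest for Tbx18 and Tcf21, and the Meis1 probe set 1459423_at lies between 32.0 and 40.1 on all 6 arrays.

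Foxd1, whose product is needed in cortical stroma for normal nephron formation, was measured by 1 mouse probe set (1418876_at). Its intensity was 99.6 and 62.1 in tips, 889 and 832.5 in stalks, and 1922 and 1889 in mesenchyme. The tissues did not overlap, and the order ran from tips to stalks to mesenchyme. Tips were at 4.24% and stalks at 45.2% of the mesenchyme mean. The tip minus mesenchyme difference was -4.34 on the log2(intensity + 16) scale used throughout (95% interval -4.68 to -4.00, adjusted p = 8.06e-08 in limma), which understates changes of weak signals. It was the second lowest of all 23919. Foxd1 was also the only member called lower in stalks than in mesenchyme, by -1.13 (95% interval -1.47 to -0.79, adjusted p = 0.00104 in limma), a call made for 0.426% of all tested probe sets.

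Tbx18, a T-box factor that marks the mesenchyme around the ureter and is required for its muscle coat, had the opposite relation between stalks and mesenchyme. Probe set 1429974_at was at 72.2 and 35.5 in tips, 1620 and 1500 in stalks, and 657.6 and 650.3 in mesenchyme. The second, 1449871_at, was at 25.8 and 20.3 in tips, 688 and 671 in stalks, and 246 and 227 in mesenchyme. In both probe sets every stalk array was above every mesenchyme array and every mesenchyme array above every tip array. Stalks exceeded mesenchyme by 1.23 (95% interval 0.78 to 1.69, adjusted p = 0.00356) and 1.46 (1.21 to 1.71, adjusted p = 3.58e-05) in limma, and 2.35% of all tested probe sets were called higher there. Tips minus stalks was -4.55 and -4.16, which placed the first probe set lowest of all 23919. That order of tissues with no overlap was found in 4.73% of all tested probe sets. The tip arrays of 1429974_at differed from each other by over 2-fold, with 1 above and 1 below the filter of 49.3.

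Tcf21 showed the same order of tissues with a smaller excess in stalks. Its brighter probe set, 1417447_at, was at 768 and 752 in tips, 4457 and 4578 in stalks, and 3295 and 3135 in mesenchyme. Here too the arrays of the tissues did not overlap. Stalks were above mesenchyme by 0.49 (95% interval 0.39 to 0.58, adjusted p = 7.67e-05 in limma), which is under 2-fold and was not called, and tips were at 23.7% of mesenchyme. Among the brightest probe set of each of the 7 genes, this was the highest share of the mesenchyme level kept in tips. The second Tcf21 probe set, 1458887_at, was near the filter, at 45.9 and 64.2 in tips, 89.7 and 76.9 in stalks, and 63.1 and 77.1 in mesenchyme. Its mesenchyme arrays overlapped those of tips and those of stalks. It was called in 0 comparisons, with tips minus stalks at -0.49 (adjusted p = 0.061) and tips minus mesenchyme at -0.28 (adjusted p = 0.253) in limma, so the Tcf21 result rests on 1 of 2 probe sets.

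Foxc1, whose loss disturbs the position and number of ureteric buds, was highest in mesenchyme and lowest in tips in both of its probe sets. Probe set 1419486_at was at 108 and 101 in tips, 851.5 and 852 in stalks, and 1382 and 1233 in mesenchyme. Probe set 1419485_at was at 36.9 and 24.8 in tips, 319.8 and 315 in stalks, and 525 and 444 in mesenchyme. The arrays of the 3 tissues did not overlap in either. Tips were at 7.99% and 6.37% of mesenchyme, with log2 differences of -3.46 and -3.42. Stalks were at 65.1% and 65.5% of mesenchyme, differences of -0.61 (adjusted p = 0.000479) and -0.58 (adjusted p = 0.0286) in limma that were under 2-fold.

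Foxc2, the close relative of Foxc1, differed less between stalks and mesenchyme. Its probe set 1416693_at was at 224 and 189 in tips, 1257 and 1220.0 in stalks, and 1373 and 1495 in mesenchyme. Tips stood apart, while stalks were at 86.4% of mesenchyme. The stalk minus mesenchyme difference of -0.21 (95% interval -0.39 to -0.03) had an adjusted p of 0.14 in limma, so these neighbours in the order were not separated by the test over all probe sets. Tips minus mesenchyme was -2.71 and tips minus stalks -2.50.

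Meis1 and Meis2 had 3 and 4 mouse probe sets, and the brightest of each gave nearly the same profile. Meis1 1450992_a_at was at 95.4 and 68.1 in tips, 880 and 842 in stalks, and 1265 and 1226 in mesenchyme. Meis2 1457632_s_at was at 386 and 363 in tips, 3022 and 3042 in stalks, and 4392 and 4403 in mesenchyme. Both followed the order of tips, stalks and mesenchyme without overlap. Tips were at 6.56% and 8.51%, and stalks at 69.1% and 69.0%, of the mesenchyme level. Stalks minus mesenchyme was -0.52 (adjusted p = 0.0174) and -0.53 (adjusted p = 5.30e-05) in limma, neither of them 2-fold.

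The other probe sets of these genes repeated the order at different brightness, with 1 exception. Meis2 1417129_a_at was at 213 and 206 in tips, 1563 and 1544 in stalks, and 2374 and 2285 in mesenchyme. Meis2 1447861_x_at was at 189 and 163 in tips, 1261 and 1221 in stalks, and 1831 and 1765 in mesenchyme. By the manufacturer's naming, the _x_at set and the _s_at set can hold probes that match other transcripts, and the share of such signal was not tested. The dim Meis2 probe set 1440091_at was at 25.4 and 23.1 in tips, 63.2 and 57.0 in stalks, and 93.4 and 76.2 in mesenchyme. It was called in tips against mesenchyme (-1.32), and its tip minus stalk difference of -0.92 was not called. With a pseudocount of 1 in place of 16 that difference was -1.28 and was called. With a pseudocount of 64 the tip minus mesenchyme difference was -0.75 and its call was lost.

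Meis1 1443260_at was also dim, at 49.0 and 42.2 in tips, 129 and 149 in stalks, and 235 and 219.6 in mesenchyme. It was called lower in tips than in stalks (-1.33), a call lost with a pseudocount of 64 (-0.89), and lower in tips than in mesenchyme (-1.98). Meis1 1459423_at was the exception, at 32.0 and 40.1 in tips, 35.4 and 33.9 in stalks, and 35.8 and 36.9 in mesenchyme. It was below the filter in every tissue and was not tested, and its tissues overlapped.

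**Figure D2:**
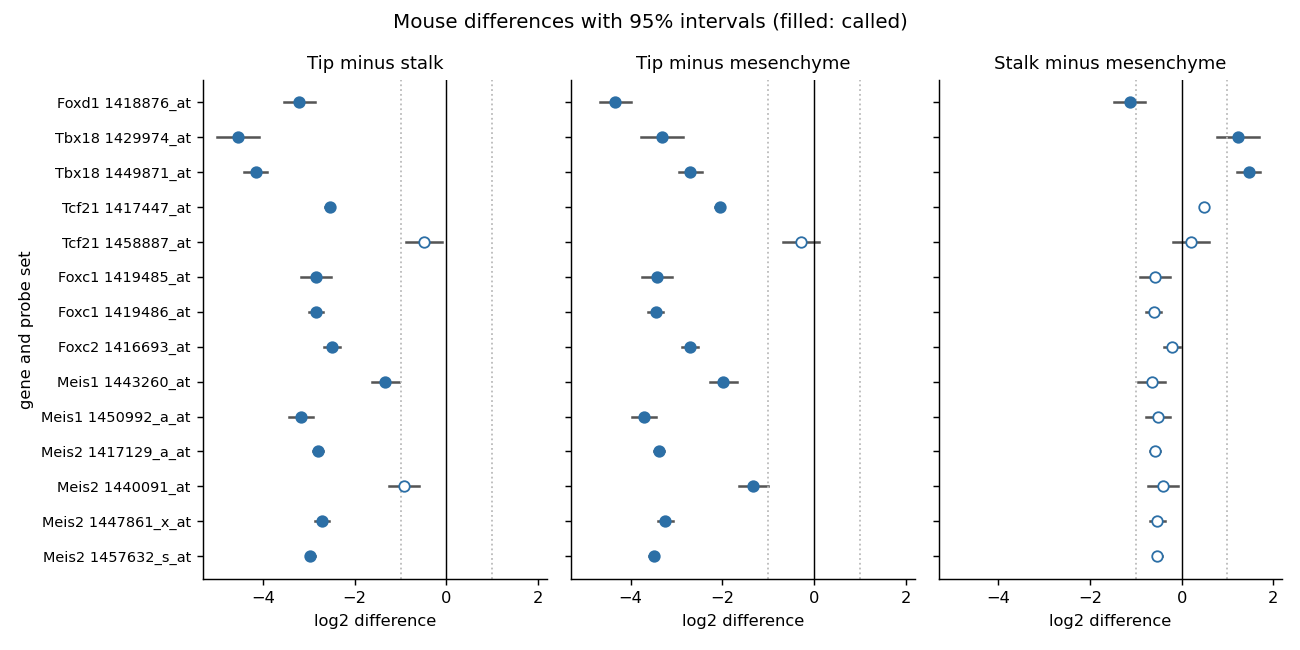
Log2 difference with its 95% interval (limma) for the 14 tested mouse probe sets in tips minus stalks, tips minus mesenchyme and stalks minus mesenchyme. Filled points were called and dotted lines mark 2-fold. All but the dim Tcf21 and Meis2 probe sets lie left of -1 in the first panel, and in the third the Tbx18 pair lies right of 1 and Foxd1 left of -1.

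Across the stalk comparison the 7 genes took 3 positions. Of the 14 tested probe sets, 2 were called higher in stalks than in mesenchyme (both Tbx18), 1 lower (Foxd1) and 11 neither, with a median difference of -0.53 beside -0.05 over all tested probe sets. At an adjusted p under 0.05 in limma without the 2-fold threshold, which 13.1% of all tested probe sets passed in either direction, 3 were higher, those of Tbx18 and the brighter one of Tcf21. Another 8 were lower, from Foxd1, Foxc1, Meis1 and Meis2. The order tips, stalks, mesenchyme without overlap was present in 9.59% of all tested probe sets.

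Pairwise likeness was described by the root mean square distance between centred log2 profiles over the 6 mouse arrays, using the brightest probe set of each gene. Foxc1 and Meis2 were 0.07 apart, Meis1 and Meis2 0.14, and Foxc1 and Meis1 0.17. Tbx18 was the most separate, at 0.76 to 0.97 from the other 6 genes. Among 12354 genes, those with the profile nearest to Foxd1 were Eya4 (0.20), AW551984 (0.26) and Meis1 (0.30). Those nearest to Tbx18 were the matrix protein gene Postn (0.20), the sulfatase gene Sulf1 (0.21) and the protocadherin gene Pcdh8 (0.26). Tcf21 was nearest to Akap12 (0.06), Dpysl4 (0.07) and Igdcc4 (0.08), and Foxc2 to Myl9 (0.10), Ddr2 (0.10) and Kif26b (0.12). Foxc1 was nearest to Meis2, Col9a1 (0.09) and Runx1t1 (0.13). The nearest genes to Meis1 were Tgfbi (0.11), Nr2f1 (0.12) and Meis2, and those to Meis2 were Foxc1, Tgfbi (0.08) and Col9a1 (0.09). The profiles share the same 6 arrays, and likeness was used only as a description.

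In rat, both bud arrays were below both mesenchyme arrays in all 8 tested probe sets, and 7 of them were called. Over all tested probe sets 25.5% on the first design, 32.4% on B and 31.8% on C had mesenchyme above bud on every array. On the first design 5 of 5 members were called lower, where 3.03% of 4616 tested probe sets were. On design B it was 1 of 1, where 2.73% of 4657 were, and on design C 1 of 2, where 2.41% of 4648 were. Foxc2 L13193_at (mean of 34.65 in buds, filter 110.8) and Foxc1 rc_AI111819_at (110.7, filter 115.2) passed the filter only through mesenchyme. Their direction was therefore fixed by the filter, and the tested members are not a sample of all members. The designs were normalised and fitted separately. The second bud labelling stood apart on all 3 designs in a measure of array quality, the 3′ to 5′ signal ratio of Gapdh. It was 4.26 to 5.28 there against 1.25 to 1.47 on the other rat arrays, and its source was not tested. On the first design 7 bud epithelium genes summed to 4901 and 4997 in buds and 827 and 880 in mesenchyme, and 22 stromal genes to 4761 and 4970 in buds and 12687 and 13658 in mesenchyme. Without the second bud labelling, the 8 differences kept their sign and each of the 7 calls remained.

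Some markers of other cell types also differed between rat bud and mesenchyme. The nephron progenitor genes Cited1 (-1.64, first design), Hoxa11 (-2.55) and Itga8 (-1.91, both on B) were lower in buds, while Crym was higher on C (2.69, not called without the second mesenchyme array). Of the endothelial genes tested, 1 of 2 was lower on B, Cdh5 (-2.32), and 2 of 6 on C, Emcn (-1.41) and Cdh5 (-1.16), both lost without either mesenchyme array and Cdh5 also with a pseudocount of 64 (-0.98). The erythroid globin gene Hba-a1 was at 698 in buds and 6004 in mesenchyme on B (-3.08). Not called were the erythroid genes Hbb-b1 (-0.60) and Alas2 (-0.56) and the endothelial gene Flt1 (0.14) on the first design, and Cited1 on B (-0.89). Of the tested macrophage, neuron, adrenal and gonadal, and skeletal muscle genes 0 were called on any design. The part of these cells in the rat values of the members was not tested.

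Rat Foxd1 was measured by a pair of probe sets on the first design made from the same sequence. Probe set L13192_f_at was at 184 and 200 in buds and 1413 and 1718 in mesenchyme, and L13192_i_at at 195 and 214 in buds and 1092 and 1293 in mesenchyme. Neither overlapped between tissues, and buds were at 12.3% and 17.1% of mesenchyme. The differences were -2.92 (95% interval -3.28 to -2.57, adjusted p = 9.79e-05) and -2.45 (-2.80 to -2.11, adjusted p = 0.000167) in limma. The suffix _f_at marks probes of a sequence family. The related rat genes Foxd3 and Foxd4, on probe sets of the same kind, were also called lower in buds (-1.78 each), and the part of shared sequence in these values was not tested.

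Rat Tcf21 was lower in buds on both of its probe sets. AF061752_at was at 118 and 111 in buds and 312 and 327 in mesenchyme. The brighter rc_AA800748_at was at 355 and 401 in buds and 1290 and 1342 in mesenchyme. The tissues did not overlap, and the differences were -1.36 (adjusted p = 0.000998) and -1.76 (adjusted p = 0.00039) in limma.

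Rat Foxc2 was present once on each design, and its 3 probe sets gave different sizes in 1 direction. L13193_at was at 32.0 and 37.4 in buds and 186 and 222 in mesenchyme. On design B, rc_AI059526_at was at 105 and 134 in buds and 1325 and 1049 in mesenchyme, and on design C, rc_AI112837_at was at 185 and 125 in buds and 424 and 371 in mesenchyme. Buds were below mesenchyme on every array. The differences were -2.12 (95% interval -2.51 to -1.72), -3.15 (-3.55 to -2.75) and -1.29 (-1.78 to -0.81), with adjusted p of 0.000447, 0.000159 and 0.0162 in limma. The last call rested on both mesenchyme arrays of design C. Without the first of them the difference was -1.22 with an adjusted p of 0.170, and without the second it was -1.39 with an adjusted p of 0.120.

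Rat Foxc1 and Meis2 gave weaker signals. Foxc1 rc_AI111819_at was at 122 and 99.0 in buds and 227 and 212 in mesenchyme, with no overlap. Its difference of -0.90 (95% interval -1.23 to -0.58, adjusted p = 0.0141 in limma) was under 2-fold and not called, and without the first bud array it was -1.03 and was called. The second Foxc1 probe set, rc_AA819240_at, was below the filter and not tested, at 49.6 and 65.7 in buds and 90.6 and 113 in mesenchyme, and its tissues did not overlap. Meis2 rc_AI059072_at was also untested, at 25.6 and 31.5 in buds and 31.1 and 32.7 in mesenchyme, and there the tissues overlapped.

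**Figure D3:**
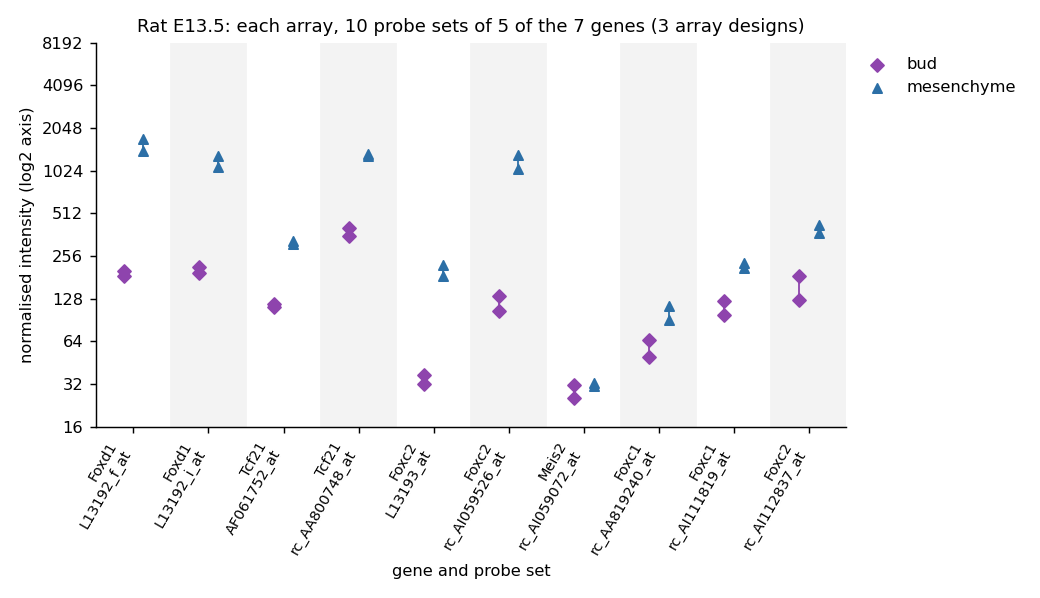
Quantile-normalised intensity (log2 axis) of the 10 rat probe sets, with 1 point per array for whole buds (diamonds) and mesenchyme (triangles), 2 arrays each. Both bud points lie below both mesenchyme points except for Meis2 rc_AI059072_at, where all 4 arrays lie between 25.6 and 32.7.

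The nearest mouse quantity was the equally weighted mean of the tip and stalk log2 values minus mesenchyme. In it 10 of 14 members were called lower, where 1.77% of all tested probe sets were. A mean of log2 values lies below the log2 of a mean of intensities, so it is not the level of a mixed whole bud. Foxd1 was at -2.74 in mouse beside -2.92 and -2.45 in rat. Tcf21 was at -0.78 on its brighter mouse probe set, which was not called, beside -1.36 and -1.76 in rat. Foxc2 was at -1.46 in mouse beside -2.12, -3.15 and -1.29, and Foxc1 at -2.03 and -2.00 beside -0.90. Tbx18, with no rat value, was at -1.04 on 1429974_at, called but lost without the second tip array (-0.86), and at -0.62 on 1449871_at, not called. For both Tbx18 probe sets a mean of tip and stalk intensities would lie above mesenchyme, so the sign depends on the scale. The species differ in array, in stage and in how tips and stalks are weighted, and the differences between them were not tested.

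**Figure D4:**
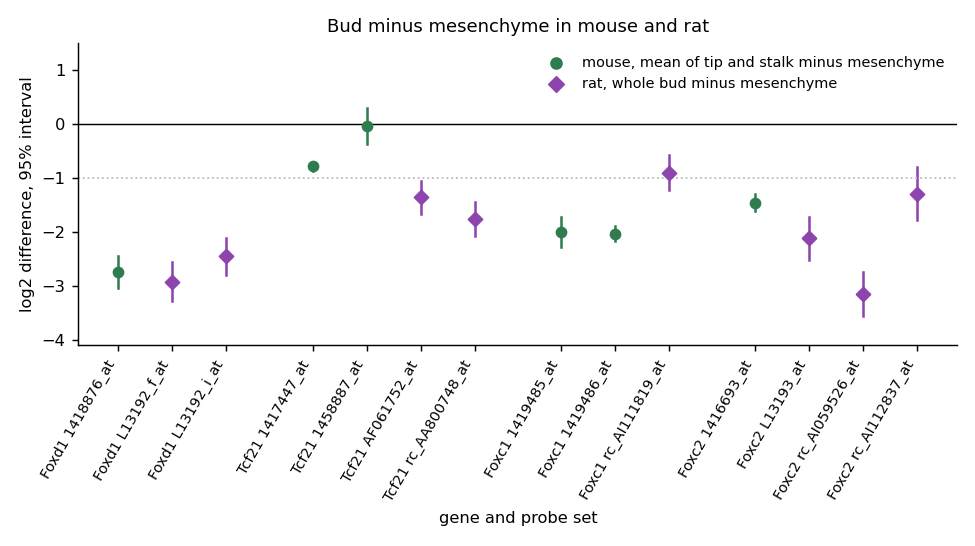
Log2 difference of bud and mesenchyme with its 95% interval (limma) for the 4 genes tested in both species. Circles are mouse, the mean of tip and stalk log2 values minus mesenchyme, and diamonds are rat, whole bud minus mesenchyme. All points but the dim mouse Tcf21 probe set 1458887_at (-0.04) lie between -3.15 and -0.78.

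Most of the other listed genes of the stroma, described by the brightest probe set of each, shared the low level in tips. Of 28 tested stromal and interstitial genes, 22 were called lower in tips than in stalks and 0 higher, with a median of -2.35. In tips against mesenchyme 24 were lower and 1 higher, with a median of -2.74. Stalks differed from mesenchyme in 6 of them, 3 in each direction, with a median of 0.14. Over all tested probe sets, 3.64% were called lower and 0.953% higher in tips than in stalks. In tips against mesenchyme 4.26% were lower and 3.90% higher, and in stalks against mesenchyme 0.426% were lower and 2.35% higher. The mouse list counts below are to be read beside the same shares. Periostin (Postn) was higher in stalks, at 1695 against 662 in mesenchyme, as was Smoc2 (1.39). Unlike Postn, Smoc2 was also higher in tips than in mesenchyme (1.06), the 1 gene called so. It was at 184 in tips, 236 in stalks and 79.8 in mesenchyme. The retinoid-binding protein gene Crabp1 was lower in stalks (-1.75), as were the netrin gene Ntn1 (-2.00) and the zinc-finger gene Sall1 (-1.59).

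Of 20 tested genes of ureteric mesenchyme and smooth muscle, 10 were called lower in tips than in stalks and 0 higher. In stalks against mesenchyme 6 were higher and 1 lower, with a median of 0.59. The lower gene was the muscle gene Des (-1.08). The muscle genes Acta2 (-0.66), Tagln (-0.78) and Myl9 (-0.29) were also below mesenchyme in stalks but not called. Myocd, Actg2, Cnn1 and Myh11 were below the filter. Of the 6 higher genes, Sox9 (1.58) was also called higher in tips than in mesenchyme (1.17). Tshz3, a zinc-finger factor needed for ureter muscle, had the order of Tbx18, at 47.5 in tips, 613 in stalks and 223 in mesenchyme. The T-box genes Tbx3 and Tbx2 did not share it. Tbx3 was at 953 in tips, 786.5 in stalks and 113 in mesenchyme, and Tbx2 at 721, 358 and 104. Both were called higher than mesenchyme in tips and in stalks, and of 5 other T-box genes tested they were the only ones called in either comparison. In rat design B neither was called, at 0.22 for Tbx3 and 0.34 for Tbx2.

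Among partners and relatives of the members, some were called lower in tips, a few higher, and most neither. Of 8 tested TALE-class genes, 2 were called lower in tips than in stalks, Pbx3 (-1.35) and Pknox2 (-1.42), which was lost with a pseudocount of 64 (-0.997). In rat design B both were lower in buds (-1.35 and -1.15, the latter -0.86 and not called with a pseudocount of 64). In tips against mesenchyme 3 TALE genes were lower, namely the dim relative Meis3 (-1.76), Pbx3 (-1.25) and Pknox2 (-1.23, lost without the first tip array at -0.98 and with a pseudocount of 64 at -0.85), and 1 was higher, Irx3 (1.76). Of 12 tested helix-loop-helix partners, relatives and inhibitors of Tcf21, 5 were lower in tips than in stalks. The relative Twist1 was lowest (-2.31), followed by the inhibitor Id2 (-1.42) and the relative Twist2 (-1.37, and -0.89 without the first tip array, under 2-fold). The inhibitor Id1 (-1.14) and the partner Tcf12 (-1.08) came next. The partners Tcf3 (0.24) and Tcf4 (-0.50) were not called. Another inhibitor, Id4, was higher than mesenchyme in tips (1.36) and stalks (1.45).

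Among 23 other forkhead genes tested, 3 were called lower in tips than in stalks and 0 higher, with a median of -0.17. Foxp2 was the largest (-3.14), with 53.0 in tips, 590 in stalks and 661 in mesenchyme. The other two, Foxa1 (-1.50) and Foxl1 (-1.06), lost the call with a pseudocount of 64 (-0.87 and -0.69), and Foxl1 also without the second stalk array (-0.97). Foxd2, the closest listed relative of Foxd1, was lower in stalks than in mesenchyme (-1.08, and -0.94 with a pseudocount of 64, not called), at 113 in tips, 205 in stalks and 452 in mesenchyme. Foxd3 and Foxd4 were below the filter in mouse. Of 9 podocyte and early glomerular genes, 2 were lower in tips than in stalks. They were Synpo (-2.74) and Wt1 (-1.11), of which Wt1 was not called with a pseudocount of 64 (-0.83) or without the second tip array (-0.92). Synpo had the order of Tcf21, at 25.5 in tips, 262 in stalks and 136 in mesenchyme. Wt1, which marks nephron progenitors as well, was instead lower in stalks than in mesenchyme (-1.55).

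**Figure D5:**
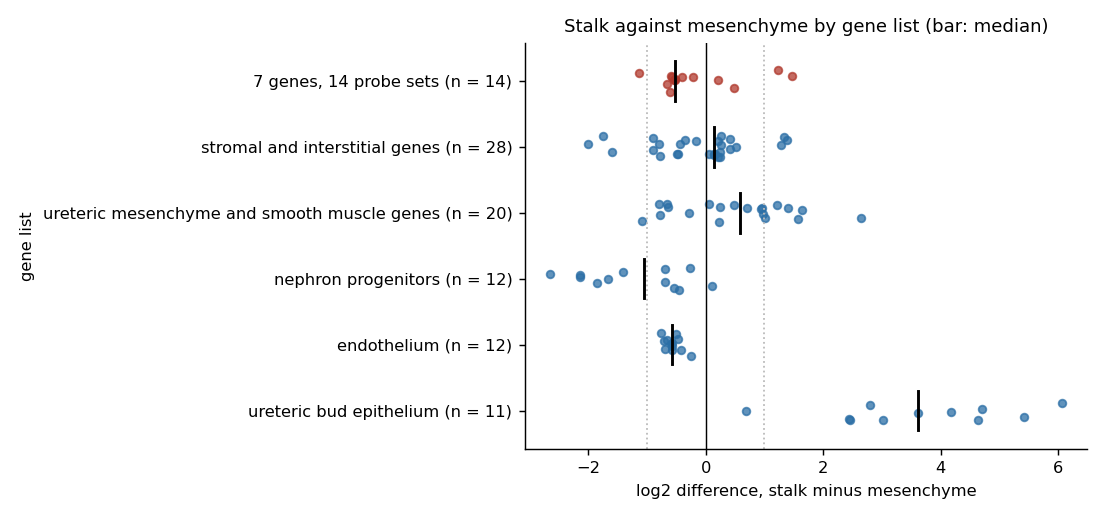
Log2 difference of stalks minus mesenchyme in mouse for the 14 tested member probe sets (red) and for the brightest probe set of each tested gene in 5 lists (blue), with a black bar at the median and dotted lines at 2-fold. The members spread from -1.13 to 1.46, with medians of -0.53 for the members, 0.14 for stromal genes and 0.59 for ureteric mesenchyme and smooth muscle genes.

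Markers of other cell types also moved with the tissues that differed in the 7 genes. The sum of 12 nephron progenitor genes was 1214 and 1146 in tips, 2997 and 2976 in stalks and 7813 and 7926 in mesenchyme, and 9 of the 12 were lower in tips and 6 in stalks than in mesenchyme. The sum of 12 endothelial genes was 986 and 1010 in tips, 2191 and 2285 in stalks and 3442 and 3445 in mesenchyme, with 11 of 12 lower in tips than in mesenchyme. In stalks against mesenchyme 0 of the 12 were called, where 0.426% of all tested probe sets were called lower. The median difference of the 12 was -0.58 there, beside -0.05 over all tested probe sets. Skeletal muscle genes summed to 341 and 391 in tips, 1848 and 2016 in stalks and 654 and 656 in mesenchyme. Most of the stalk sum was the cardiac actin gene Actc1, at 1611 in stalks. Erythroid genes (5) summed to 8695 and 9213 in tips, 16533 and 16457 in stalks and 22342 and 22011 in mesenchyme, and macrophage genes (8) to 444 and 537, 696 and 743, and 1014 and 993. Neuron and neural crest genes (7) summed to 310 and 330 in tips, 436 and 442 in stalks and 978 and 847 in mesenchyme, with 4 of 7 called lower in tips and 3 of 7 in stalks than in mesenchyme, among them Stmn2 (-2.17 and -1.57). Of the 8 macrophage genes, 2 were called lower in tips than in mesenchyme and 0 in stalks, while Ptprc was above mesenchyme in both (0.90 and 0.83, not called). Adrenal and gonadal genes (7) were highest in tips, with sums of 472 and 486 there, 326 and 326 in stalks, and 328 and 368 in mesenchyme. Most of the tip excess was Sox8, at 153 in tips, 34.2 in stalks and 26.4 in mesenchyme. Sox8 was called higher in tips than in mesenchyme (1.99), the only 1 of the 4 tested genes called there. In each list 0 markers were at 0 in any tissue. The part of these cells in the values of the members was not tested.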

How the data were processed

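The deposited tables, 1 for mouse and 3 for rat, give 1 linear intensity per probe set and array, as the authors deposited them. Per the labels, 1 ug of total RNA was labelled by the standard Affymetrix procedure. No source used here gives the scaling, the summary method or detection calls. Within a table the 2% trimmed means of arrays spread over 10.4% (mouse) and 2.44% to 4.28% (rat).

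Quantile normalisation was applied table by table, and values were taken as log2(intensity + 16). After control probe sets were dropped, a probe set was tested if a tissue mean reached the median of its table (49.3 in mouse, and 111, 118 and 115 in rat). In mouse 23919 of 45037 probe sets passed. In rat 4616 passed on the first design, 4657 on B and 4648 on C. Of the 25 members 22 passed. Differences were fitted with limma 3.58.1 in R 4.3.3 (lmFit, eBayes with an intensity trend), with all 6 mouse arrays in 1 fit and each rat table alone. Calls needed a Benjamini-Hochberg adjusted p under 0.05 over all tested probe sets and a 2-fold difference.

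Every single-symbol probe set of the 7 genes was named. Of each list and comparison the called genes with the largest differences, at most 4, or with none called at most 2, could be named. Values of such a gene in other comparisons, and genes named as losing a call, are given beside it. Other listed genes were added where they limit how a count is read. Genes were represented by their brightest single-symbol probe set. The members and lists were chosen with earlier results of these data known, so their directions are not independent evidence. The fits were tested on simulated data. Alternatives were the deposited scale, trimmed-mean scaling, pseudocounts of 1 and 64, no filter, a 75th percentile filter, no intensity trend, a replicate block, and leaving out each array.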

Additional observations from a re-analysis of the deposited data

Results flagged for a closer look

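In mouse, the tips and stalks of the bud lay on opposite sides of the mesenchyme for 2 of the 7 genes, an order without overlap that 4.73% of all tested mouse probe sets had. Both tip arrays were below both mesenchyme arrays and both stalk arrays above them for Tbx18 1429974_at, Tbx18 1449871_at and Tcf21 1417447_at. For Tcf21 this held in 1 of 2 probe sets, since in 1458887_at the mesenchyme arrays overlapped those of tips and of stalks. For Tbx18 1449871_at the lower mean of tips than of mesenchyme was fixed by the filter. Tips minus stalks was -4.55 and -4.16 for Tbx18 and -2.55 for Tcf21, whose direction follows from this order, so no test of it is given here. The mean of tip and stalk log2 values minus mesenchyme was -1.04 and -0.62 for the Tbx18 probe sets. This lay between tips at -3.31 and -2.70 and stalks at 1.23 and 1.46. For Tcf21 it was -0.78, between tips at -2.06 and stalks at 0.49, the last under 2-fold and not called.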

How the results depend on the processing

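Of 64 pairs of a member probe set and a comparison, 56 kept their side of the threshold under every alternative run, 8 changed side under at least 1, and 0 called differences changed sign. The uncalled Tcf21 1458887_at in the mean of tips and stalks against mesenchyme (-0.04) turned to as much as 0.08 when 1 array was left out. There were up to 14 alternatives in mouse and 12 in rat. Beside the changes given with the results, Meis1 1443260_at lost its call in the mean of tips and stalks against mesenchyme with a pseudocount of 64 (-0.97), as did Tbx18 1429974_at (-0.72). Meis2 1440091_at gained one there with a pseudocount of 1 (-1.12).

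With a pseudocount of 64 the numbers of all called probe sets were 671 in tips against stalks (1098 with 16), 1266 in tips against mesenchyme (1953), 392 in stalks against mesenchyme (663), 658 in the bud mean (1112) and 172 in rat design B (269). With the 75th percentile filter, which tests fewer probe sets, they were 1286 in tips against mesenchyme and 176 in rat design B. Leaving out 1 array gave 243 to 477 calls on the first rat design (267 with all; 477 without the first bud array). On design C it gave 77 to 360 (215 with all; 360 without the first bud array, 77 and 82 without the first and the second mesenchyme array), with 0 to 2 members called and 3 to 9 listed genes (3 without the second mesenchyme array). Dropping an array leaves a tissue with 1 array, which is assumed to vary like the others. Of 185 called pairs of a listed gene and a comparison, 34 lost the call under some alternative, 29 of them with a pseudocount of 64, and 0 of the called differences changed sign.

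The replicate numbers share only a number in the labels. Deviations of same-numbered arrays correlated at 0.42 to 0.57 in mouse and 0.22 to 0.31 in rat. With the replicate block the numbers called were 1098, 1953, 663 and 1112 in mouse and 306, 274 and 221 in rat, and no member call changed. Other scalings moved the median of all probe sets by less than the limit of 0.1 on the log2 scale in each comparison. The 2 arrays per tissue and 1 RNA pool limit all values, and the lowest intensities have no detection calls here.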
